A study of Mus musculus with 2 samples.

Results

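Serpins are secreted proteins that trap serine proteases by offering a loop as bait and then distorting the enzyme that cuts it. The liver makes most of the plasma serpins. Serpina1 genes are the mouse relatives of the human gene of alpha-1-antitrypsin, an inhibitor of neutrophil elastase. Mice carry several copies where humans carry a single gene, and which protease each copy inhibits was not examined here. Serpina3 genes are the mouse relatives of human alpha-1-antichymotrypsin, and some of them, Serpina3n among them, are known as acute-phase genes. Serpina6 has the same fold but inhibits no protease: it encodes corticosteroid-binding globulin, the plasma carrier of glucocorticoids.

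The 10 genes described here are Serpina1a, Serpina1b, Serpina1c, Serpina1d, Serpina1e, Serpina3c, Serpina3k, Serpina3m, Serpina3n and Serpina6. They were followed through the deposited cluster tables of a single-cell RNA sequencing study of mouse liver, which list, for each cell cluster, the genes that the authors' software picked as its markers. Of the 2788 genes found in either table, 9 were members. Serpina1e was listed in neither table. The table of hepatocytes alone held 9 of the 10 members, and the table of all cells held 5, with Serpina1a, Serpina1b, Serpina1c, Serpina1e and Serpina3n not listed there. A gene that is not listed for a cluster has no value for it, so an absent row is not a value of 0.

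The cells came from wild-type BALB/c mice, aged 8 to 10 weeks by the study's hepatocyte protocol, that received PBS or 0.5 µg of recombinant interleukin-33 (rIL-33) by intraperitoneal injection on each of 5 days. Per the study's text the mice were fasted. Primary hepatocytes were freed by a digestion in 2 steps and profiled in droplets with a 3′ kit, with 1 library for each condition. Both libraries were pooled in the tables, so the members were compared between clusters and not between PBS and rIL-33, and no value here has a replicate or a test. Each row states in what share of the cells the gene was detected, meaning that its value was above 0, inside a cluster and in the reference cells. These were the other hepatocytes in the first table and all other cells in the second. The study's text gives the number of cells in total and of hepatocytes, but the shares come without a count per cluster. The depth per cell is unknown.

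All 10 genes lie on chromosome 12, between positions 103646630 and 104414329 of GRCm38 (mm10) in the GENCODE annotation, a stretch of 767700 bases. Serpina6 and the 5 Serpina1 genes are on the minus strand at the lower end, Serpina3c follows on the same strand, and Serpina3k, Serpina3m and Serpina3n are on the plus strand at the upper end. The Serpina1 genes were near copies of each other. Their coding sequences were 96.3% to 98.5% identical over the 10 pairs, with a median of 96.6%. The Serpina3 genes were 83.5% to 91.8% identical over 6 pairs, and pairs that joined different groups were 57.2% to 62.1% identical.

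The 60 bases of coding sequence in which the Serpina1 genes differed most are shown because they fall on the bait loop, the part that sets which protease is caught. The sequences are from the GENCODE transcripts, read 5′ to 3′, and capitals mark the 18 positions that vary among the 5 genes, of 86 such positions over the aligned coding sequence.
Serpina1a: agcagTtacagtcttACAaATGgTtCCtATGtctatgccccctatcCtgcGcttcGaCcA
Serpina1b: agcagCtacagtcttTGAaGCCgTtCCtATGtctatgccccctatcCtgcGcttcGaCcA
Serpina1c: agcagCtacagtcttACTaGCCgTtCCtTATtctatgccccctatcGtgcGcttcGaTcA
Serpina1d: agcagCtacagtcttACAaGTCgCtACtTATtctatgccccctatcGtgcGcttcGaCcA
Serpina1e: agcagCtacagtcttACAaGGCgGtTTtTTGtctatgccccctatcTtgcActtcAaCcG

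The loops of the 4 Serpina3 genes differ even in length, so they are printed between the landmarks that flank them in all 4. Capitals mark the stretch in between, which had 39 bases in Serpina3c, 42 in Serpina3k and 48 in Serpina3m and Serpina3n, and lower case marks the flanks.
Serpina3c: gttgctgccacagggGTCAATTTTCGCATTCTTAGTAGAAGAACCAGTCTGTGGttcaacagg
Serpina3k: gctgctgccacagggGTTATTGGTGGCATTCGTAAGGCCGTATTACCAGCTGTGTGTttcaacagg
Serpina3m: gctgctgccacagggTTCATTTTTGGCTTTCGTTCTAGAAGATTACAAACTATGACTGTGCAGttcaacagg
Serpina3n: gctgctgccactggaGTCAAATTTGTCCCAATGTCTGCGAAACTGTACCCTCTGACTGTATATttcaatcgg

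Near copies matter for counting, because a read that fits 2 genes cannot be given to 1 of them, and the counting software drops such reads by default. The read covers 89 bases near the 3′ end of the transcript. In the last 500 bases of the longest transcript, 22.3% of the 89-base windows of Serpina1a occurred letter for letter in another gene, either Serpina1c or the pseudogene Gm8893. The share was 16.0% for Serpina1c, 8.01% for Serpina1d and 3.88% for Serpina1b. It was 0 for Serpina1e, for the 4 Serpina3 genes and for Serpina6. In the last 300 bases the share was 22.6% for Serpina1a, with Gm8893 alone, and 0 for the other members. Dropped reads can make the values of Serpina1a to Serpina1d too low, by a part that may differ among the copies and was not tested. The Serpina3 values are not touched by exact sharing in these windows. Overlap on the map is a second source of doubt. The annotated span of Serpina3m, 104338486 to 104394257, contains that of Serpina3k, 104338486 to 104346144, on the same strand. The span of Serpina1b, 103728156 to 103830373, contains Serpina1d and Gm8893. The reference is from another strain, C57BL/6J, and variation in BALB/c was not examined.

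**Figure D1:**
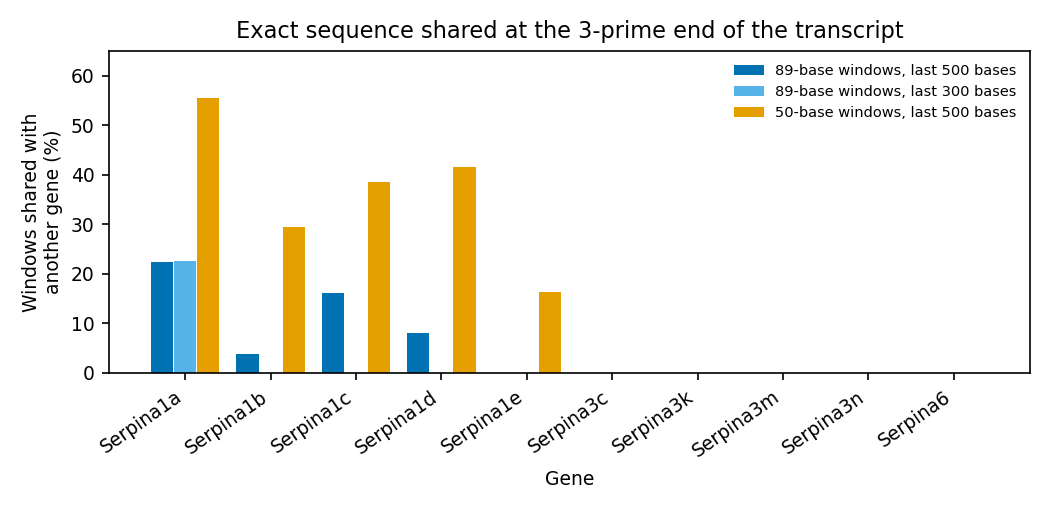
Exact sequence sharing at the 3′ end for the 10 genes. Bars give the percent of windows found letter for letter in another gene, for 89-base windows in the last 500 or 300 bases and for 50-base windows in the last 500 bases. Serpina1a stood highest under each setting, at 22.3%, 22.6% and 55.4%, and the 4 Serpina3 genes and Serpina6 stood at 0.

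The sizes of the 5 hepatocyte clusters were worked out from the shares themselves, since a gene listed for several clusters must give the same share over all hepatocytes from each of its rows. Hepatocyte1 held 55.6% of hepatocytes, Hepatocyte4 18.1%, Hepatocyte2 14.9%, Hepatocyte3 10.1% and Hepatocyte5 1.47%. The labels were checked against marker genes. Alb, the gene of serum albumin, was detected in 100% of hepatocytes, but also in 100% of the cells outside Hepatocyte4 in the table of all cells, so it marks no cell type there. Hnf4a, a hepatocyte transcription factor, was detected in 28.1% of hepatocytes. Of 19 markers of other liver and blood cells, 16 were listed for their own cluster in the table of all cells and 0 for any hepatocyte cluster in the hepatocyte table. The exceptions were Pecam1 and Stab2, endothelial genes listed for the stellate cell or fibroblast cluster, both at 73.7%, and Hbb-bs, which was not listed. Pecam1 was also listed for the T cell cluster, at 35.8%, and for the Kupffer cell cluster, at 30.1%. Clec4g, another endothelial gene, was at 52.6% in the stellate cell or fibroblast cluster. It was at 33.3% in the cluster labelled endothelial, where Dcn, a fibroblast gene, was also listed. These 2 labels are used here only as names of clusters. Genes of other cell types had values above 0 widely in the table of all cells. Whether these values stand for RNA present in the cells was not tested. C1qa, a Kupffer cell gene, was detected in 24.4% of cells outside the Kupffer cluster, S100a8, a neutrophil gene, in 46.9% outside its cluster, and the T cell gene Trac in 0.0%. The share of cells that hold member transcripts without making them could not be computed, and the part of free RNA in the values below was not tested.

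Over all hepatocytes the members spanned nearly the whole range of detection in the hepatocyte table. Serpina1c was found in 98.5% of hepatocytes, Serpina1b in 97.9%, Serpina3k in 95.3% and Serpina1a in 92.1%. These 4 genes were present in almost every cell, so their shares have little room to show a difference between clusters. Serpina1d followed at 61.5% and Serpina3n at 53.3%. Serpina3c at 27.6%, Serpina3m at 16.2% and Serpina6 at 5.45% were lowest. These low shares depended on the table: over all cells, about 90.0% of which were hepatocytes, the table of all cells gave 58.6% for Serpina3c, 51.7% for Serpina3m and 42.1% for Serpina6, but 94.9% for Serpina3k and 60.3% for Serpina1d.

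Members were listed for 3 of the 5 hepatocyte clusters. Hepatocyte2 had 4 members, all of them Serpina1 genes, where 3.48% of the genes in the table were listed for that cluster. Hepatocyte4 had 5 members, Serpina1a and all 4 Serpina3 genes, against 54.7% of all genes. Hepatocyte5 had 5 members, the 4 Serpina3 genes and Serpina6, against 54.3%. Hepatocyte1, for which 10.6% of genes were listed, and Hepatocyte3, for which 7.64% were, had 0 members. The counts for Hepatocyte4 and Hepatocyte5 are thus near what any gene in the table showed, while the 4 Serpina1 genes stood among only 56 genes listed for Hepatocyte2 and made up 7.14% of them. The members were chosen with earlier results of these data known, so that last share is a description.

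**Figure D2:**
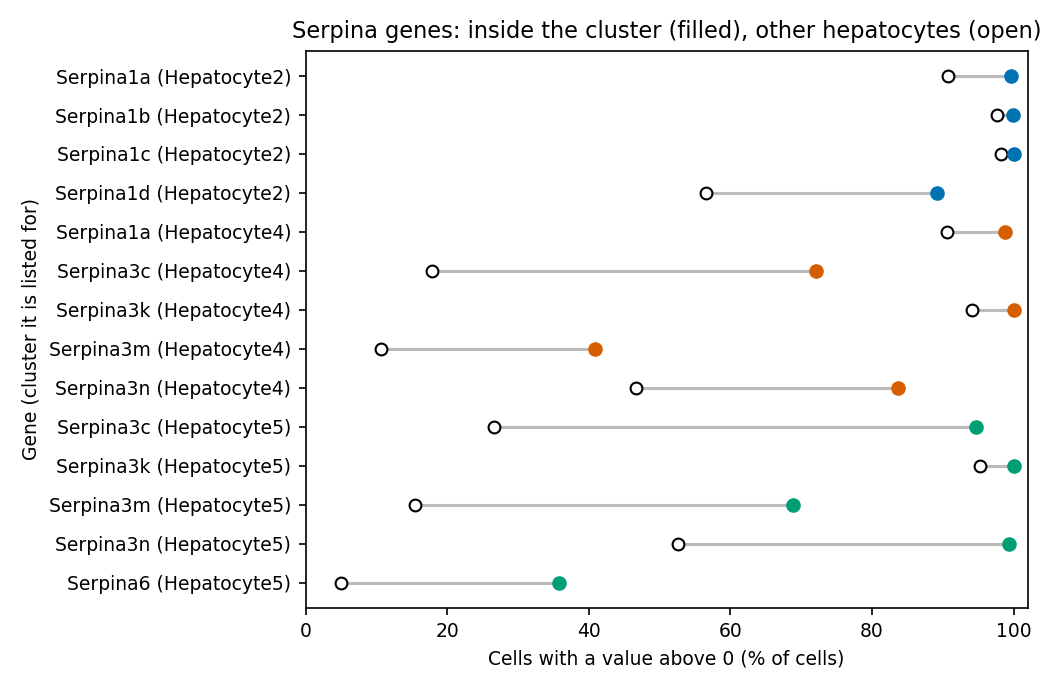
Detection of each member by cluster in the hepatocyte table. Filled points give the cluster, open points the other hepatocytes, both in percent of cells. Every filled point lies to the right of its open point, by 1.8 points for Serpina1c in Hepatocyte2 up to 68.1 points for Serpina3c in Hepatocyte5.

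In Hepatocyte2 the 4 Serpina1 genes had higher shares inside the cluster than outside. Serpina1d was detected in 89.2% of Hepatocyte2 cells and 56.6% of other hepatocytes, a difference of 32.6 percentage points. Serpina1a was at 99.6% and 90.7%, and Serpina1b at 99.9% and 97.6%. Serpina1c was at 100% and 98.2%. Serpina1d was thus the only Serpina1 gene with room to differ by many points, and its difference stood close to the median of 33.65 points over the 56 genes of the cluster, at rank 33. The other 3 copies held ranks 54, 55 and 56, the last ones, while Serpina1c, Serpina1b and Serpina1a were also the genes with the highest shares inside the cluster. Seen from the cells without the transcript, Serpina1d was missing from 10.8% of Hepatocyte2 cells and 43.4% of the others. Serpina1a was missing from 0.4% and 9.3%.

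Shares near 100% can be set on a common scale by asking how many transcripts per cell they imply if counts in cells followed a Poisson law. On that scale, the ratio of Hepatocyte2 to other hepatocytes was 2.67 for Serpina1d, 2.32 for Serpina1a and 1.85 for Serpina1b, and at least 1.88 for Serpina1c, whose share inside was rounded to 100%. Rounding alone let the ratio of Serpina1b lie anywhere from 1.73 to 2.05. The median over the 56 genes of the cluster was 3.19. Serpina1d, Serpina1a and Serpina1b therefore lay closer together on this scale than in percentage points and below the median of the cluster, and Serpina1c, with a lower limit alone, could not be placed. These ratios are computed from the shares and carry no error between animals.

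Serpina1a was also listed for Hepatocyte4, at 98.8% inside and 90.6% outside, an implied ratio of 1.87. It was the only gene of the hepatocyte table listed for both Hepatocyte2 and Hepatocyte4, which is 0.0622% of the 1609 genes. In the pool of Hepatocyte1, Hepatocyte3 and Hepatocyte5, its share came to 88.6%. Serpina1a was the copy with the most shared windows at its 3′ end, and the part of that in its rows was not tested.

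In Hepatocyte4 and Hepatocyte5 the 4 Serpina3 genes had higher shares inside both clusters, and 3 of them were higher in Hepatocyte5 than in Hepatocyte4. Serpina3c was detected in 72.1% of cells of Hepatocyte4 and 17.8% of the remaining hepatocytes, and in Hepatocyte5 the values were 94.7% and 26.6%. Serpina3m was at 40.9% against 10.7% in Hepatocyte4, and at 68.9% against 15.4% in Hepatocyte5. Serpina3n was at 83.7% against 46.6% in Hepatocyte4, and at 99.3% against 52.6% in Hepatocyte5. For each of these genes the order was Hepatocyte5 first, then Hepatocyte4, then the rest. Serpina3k was at 100% in both clusters and at 94.2% and 95.2% outside, so no order of these clusters could be read for it.

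The balance of the shares gives what was left for Hepatocyte1, Hepatocyte2 and Hepatocyte3 together, 80.4% of hepatocytes. There Serpina3c was found in 16.4% of cells, Serpina3m in 9.64%, Serpina3n in 45.6% and Serpina3k in 94.1%. The cells with Serpina3c were therefore unevenly spread. Hepatocyte4 made up 18.1% of hepatocytes and held 47.3% of those with Serpina3c and 45.8% of those with Serpina3m, but 28.5% of those with Serpina3n and 19.0% of those with Serpina3k. Hepatocyte5 held 5.04% of the Serpina3c cells and 6.26% of the Serpina3m cells, with 1.47% of all hepatocytes.

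**Figure D3:**
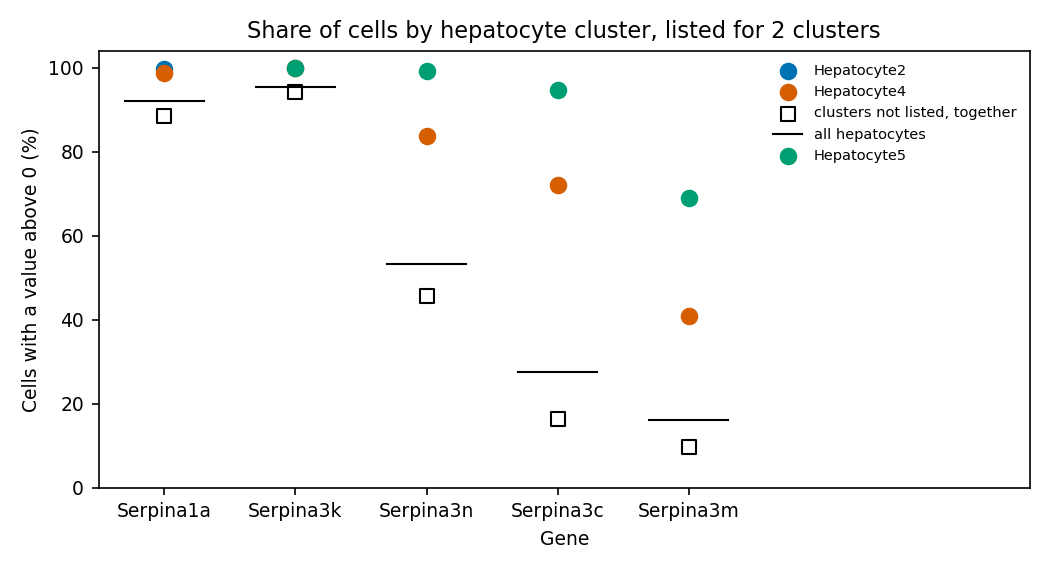
Percent of cells in which a gene was detected, for the 5 members listed for 2 clusters. Coloured points are clusters, the square is the share in the clusters for which the gene is not listed, as 1 pool, and the line is the share over all hepatocytes. Serpina3n, Serpina3c and Serpina3m each show Hepatocyte5 above Hepatocyte4 and the square lowest, while Serpina1a and Serpina3k crowd near 100%.

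Set against the other genes of the same clusters, Serpina3c stood high in the hepatocyte table but not in the table of all cells. Its difference of 54.3 points in Hepatocyte4 ranked 44 of 880 and was larger than that of 95.0% of the listed genes, where the median was 33.1 points. In Hepatocyte5 its 68.1 points ranked 70 of 874, with a median of 42.95. In the table of all cells its 37.1 points in Hepatocyte4 ranked 155 of 443, with a median of 33.8, and its 39.9 points in Hepatocyte5 ranked 275 of 434, below the median of 44.6. Among hepatocytes, Serpina3n, at 37.1 and 46.7 points, and Serpina3m, at 30.2 and 53.5 points, lay near the medians. Serpina3k was near the bottom with 5.8 and 4.8 points. A difference of at least 25 points was found for 3 members in Hepatocyte4, where 42.3% of all genes in the table reached it, for 4 in Hepatocyte5, against 48.9%, and for 1, Serpina1d, in Hepatocyte2, against 2.92%. On the scale of implied transcripts the ratios in Hepatocyte4 were 6.51 for Serpina3c, 4.65 for Serpina3m, 2.89 for Serpina3n and at least 2.66 for Serpina3k, against a median of 5.95. In Hepatocyte5 they were 9.50, 6.98, 6.65 and at least 2.49, against 8.52. In Hepatocyte4, Serpina3c was above the median ratio, and Serpina3m and Serpina3n were below it. Serpina3m was below the median ratio in Hepatocyte5 as well. Serpina3k, with lower limits alone, could not be placed. Hepatocyte5 held only 1.47% of hepatocytes, and Serpina3n was missing from 0.7% of its cells and Serpina3c from 5.3%. Their ratios in Hepatocyte5 thus rest on few cells in which the gene was not detected, so neither gene is placed against the median there. The counting error of the ratios was not computed. In the table of all cells the ratios were lower, at 3.04 for Serpina3c and 2.60 for Serpina3m in Hepatocyte4 and 4.50 and 4.11 in Hepatocyte5, so the size of these ratios rests on which table is read.

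Nearly every gene listed for these clusters was more often detected inside: 878 of 880 for Hepatocyte4 and 873 of 874 for Hepatocyte5. The depth per cell of these clusters is unknown, and its part in the Serpina3 values was not tested. Of all genes in the table, 26.7% were listed for both clusters, as were the 4 Serpina3 genes.

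**Figure D4:**
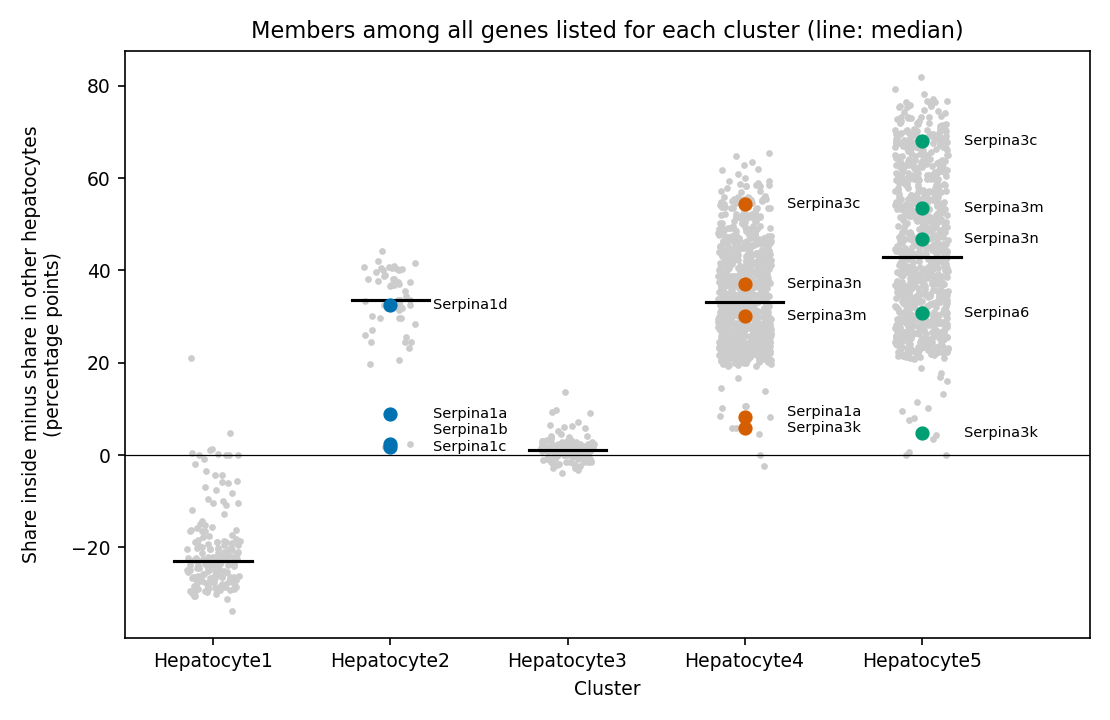
Difference in share, inside minus other hepatocytes in percentage points, for every gene listed for each hepatocyte cluster. Gray points are all genes, coloured points are members and the line is the median. Serpina3c lies in the upper part of Hepatocyte4 and Hepatocyte5, Serpina1d lies near the median of Hepatocyte2, and Serpina1a, Serpina1b, Serpina1c and Serpina3k lie close to 0.

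Serpina6, the glucocorticoid carrier, was listed for Hepatocyte5 alone in the hepatocyte table. It was detected in 35.8% of that cluster and 5.0% of the remaining hepatocytes, a difference of 30.8 points at rank 659 of 874 and an implied ratio of 8.64. Every listed gene reached 25% on one side, so a gene this rare outside Hepatocyte5 had little room to be listed for another cluster. The table of all cells listed Serpina6 for Hepatocyte4 as well. In the table of all cells the ratio in Hepatocyte5 was 3.14. Hepatocyte5 held 9.65% of all hepatocytes with Serpina6, the largest such share among the members in that cluster.

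The table of all cells listed members for the same 3 clusters, but not the same members. Serpina1d was listed for Hepatocyte2 at 89.4% against 55.8% of all other cells, the largest difference of only 10 genes, where 0.57% of genes were listed. Serpina3k, Serpina3c, Serpina3m and Serpina6 were listed for both Hepatocyte4 and Hepatocyte5, where 25.2% and 24.7% of genes were. Serpina6 in Hepatocyte4, absent from the hepatocyte table, was at 63.7% against 37.9%. Of all genes, 19.9% were listed for both. None of the 10 members was listed for Hepatocyte1, where 1.77% of genes were, or for Hepatocyte3, where 2.11% were. None was listed for the 7 clusters of other cells either, for which the share of all genes was 5.58% in endothelial cells, 12.9% in neutrophils, 18.2% in red blood cells, 28.4% in Kupffer cells, 29.1% in B cells, 30.5% in the stellate cell or fibroblast cluster and 34.1% in T cells.

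The same cells did not have the same shares in both tables. In Hepatocyte4, Serpina3m was at 40.9% in the hepatocyte table and 80% in the table of all cells, and Serpina3c was at 72.1% and 89.6%. In Hepatocyte5, Serpina6 was at 35.8% and 81.5%, Serpina3m at 68.9% and 94.7%, and Serpina3c at 94.7% and 98%. Serpina1d in Hepatocyte2 was at 89.2% and 89.4%. Among these shares inside a cluster, low ones thus moved most, and those near 90% or above hardly at all. A middling share did not always move, although the reference cells differ between the tables. Outside Hepatocyte2, Serpina1d was at 56.6% and 55.8%, while Serpina3c outside Hepatocyte4 was at 17.8% and 52.5%. Over all 825 rows found in both tables, 12.6% were equal within rounding, 704 were higher in the table of all cells and 17 lower, with a median difference of 10.5 points. What was counted as a value above 0 therefore differed between the tables, so levels were compared only within one of them.

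**Figure D5:**
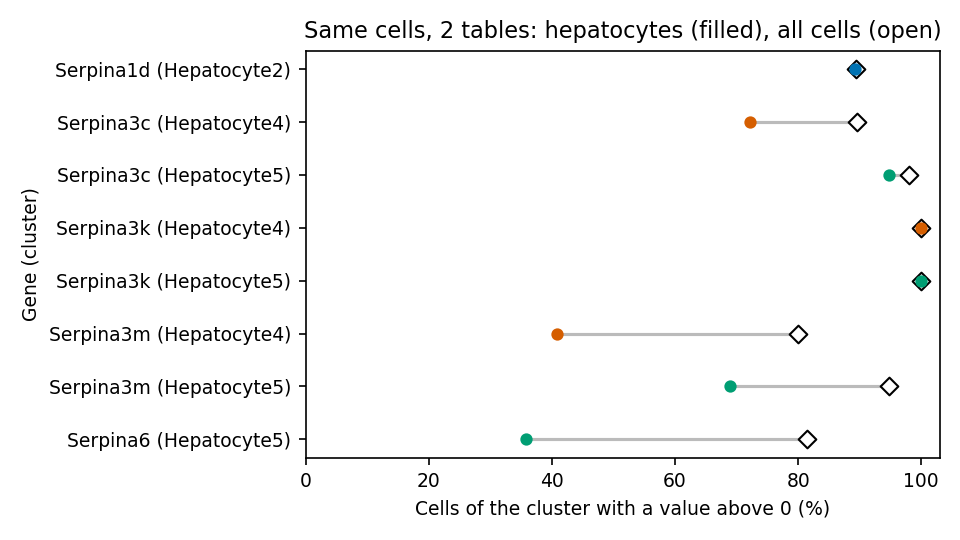
Percent of the cells of a cluster in which a gene was detected, for the 8 rows of members found in both tables. Filled points are the hepatocyte table and open diamonds the table of all cells. The gap is 45.7 points for Serpina6 in Hepatocyte5 and 39.1 points for Serpina3m in Hepatocyte4, and 0 for Serpina3k.

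For each member listed for at least 2 hepatocyte clusters, the genes most like it were sought among the genes listed for exactly the same clusters, by the root mean square difference of the 4 shares. There were 429 such genes for Hepatocyte4 with Hepatocyte5. Serpina3c was nearest to C8a, a complement component gene, at 1.45 points. Serpina3n was nearest to Serpinc1, the gene of antithrombin, at 1.32 points, then to Pigr, the polymeric immunoglobulin receptor gene, at 1.99. Serpina3k was nearest to Mup3, a major urinary protein gene, at 0.534 points and to Trf, the transferrin gene, at 2.07. Serpina3m was nearest to Bcap31, a gene of the endoplasmic reticulum, at 1.18 points and Gfra1 at 1.37. Serpina1a had 0 candidates. These are likenesses over 2 clusters of pooled cells.

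Other genes of protease control are given from lists drawn up for this purpose. Of 28 other serpins, 7 were listed in the hepatocyte table, 6 for Hepatocyte4 and 7 for Hepatocyte5, and 0 for the other 3 clusters. Their median differences were 45.1 points in Hepatocyte4 and 66.6 in Hepatocyte5. Serpind1, heparin cofactor II, was at 93.4% against 19.0% in Hepatocyte5, and Serpinf2, alpha-2-antiplasmin, at 64.7% against 14.0% in Hepatocyte4. Serpina11 was at 56.2% against 16.8% in Hepatocyte4 and 90.7% against 23.0% in Hepatocyte5. As 54.7% and 54.3% of all genes in the table were listed for Hepatocyte4 and Hepatocyte5 and 3.48% for Hepatocyte2, these counts alone do not set the serpins apart.

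Of 23 other plasma protease inhibitors, 15 were listed, 9 for Hepatocyte4 and 14 for Hepatocyte5, with median differences of 44.4 and 52.35 points. The inter-alpha-trypsin inhibitor heavy chain gene Itih1 was at 99.3% against 21.0% in Hepatocyte5, and Itih2 at 97.4% against 24.1%. Kng2, a kininogen gene, was at 85.4% against 18.8%. The same shares of all genes apply to these counts and to those of the lists that follow.

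Of 16 serine proteases, 11 were listed, 8 for Hepatocyte4 and 11 for Hepatocyte5, with median differences of 37.35 and 55.9 points. All 11 are proteases that the liver secretes into plasma. F12, coagulation factor XII, was at 86.8% against 12.1% in Hepatocyte5, and Proc, protein C, at 97.4% against 26.9%. F7, coagulation factor VII, was at 58.9% against 8.5% there in the hepatocyte table, and at 88.1% against 23.2% in the table of all cells, which listed 10 of the 16 for a hepatocyte cluster. The 5 proteases of immune cells on the list, Elane, Prtn3, Ctsg, Gzma and Gzmb, were listed for no cluster of either table. Elane encodes neutrophil elastase, the main target of human alpha-1-antitrypsin.

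For Serpina6, 8 genes of glucocorticoid transport and response were followed, and 6 were listed for Hepatocyte4 but 1 for Hepatocyte5, with a median difference of 33.6 points in Hepatocyte4. Hsd11b1, the enzyme that regenerates active glucocorticoid in liver, was at 83.7% against 33.5% in Hepatocyte4 and at 98.7% against 41.7% in Hepatocyte5. Tsc22d3, a glucocorticoid-induced gene, was at 59.4% against 13.2% in Hepatocyte4, and Tat, a tyrosine catabolism enzyme gene induced by glucocorticoids, at 97.3% against 62.5%.

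Of 13 regulators and secretory route genes, 11 were listed, 10 for Hepatocyte4 and 5 for Hepatocyte5, with median differences of 36.95 and 49.2 points. Hnf4a, a hepatocyte transcription factor, was at 65.9% against 19.7% in Hepatocyte4. Il6st, the signalling subunit of the interleukin-6 receptor, was at 57.0% against 7.8% in Hepatocyte5, and Stat3, which relays its signal, at 46.2% against 9.3% in Hepatocyte4. Lman1 and Mcfd2 encode the partners that carry some plasma proteins, alpha-1-antitrypsin among them, out of the endoplasmic reticulum. Lman1 was at 54.1% against 12.3% in Hepatocyte4 and 88.7% against 18.9% in Hepatocyte5, and Mcfd2 at 53.5% against 12.9% in Hepatocyte4. Surf4, another cargo receptor of that route, was at 75.5% against 17.2% in Hepatocyte5. Cebpb was not listed. The listed genes of these lists had higher shares inside the clusters, as did nearly all genes listed there.

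Since the Serpina1 genes were listed together for Hepatocyte2, their promoters were compared. RefSeq promoters of GRCm38.p6, 300 bases around the annotated start, matched 7 of the 10 members, and Serpina3k, Serpina3m and Serpina6 had no entry. Promoters of Serpina1 pairs were 91.7% to 98.4% identical, and those of Serpina3c and Serpina3n 93.5%. The pairs with Serpina1e, 95.2% to 98.4% identical, were aligned over 238 to 249 bases because its annotated start is offset, against 288 to 298 bases for the other Serpina1 pairs, which were 91.7% to 94.9% identical. The letters TTGCNNAA, of the C/EBP site, occurred in the promoters of Serpina1a, Serpina1b, Serpina1d and Serpina1e, against 10.8% of all 32851 promoters. Counted from the start, the match lay at -161 in Serpina1b, -149 in Serpina1d and -211 in Serpina1e. In Serpina1a it lay at 24, after the start, so it is another site. Serpina1c, Serpina3c and Serpina3n had 0 matches. As the Serpina1 promoters are near copies, their matches are not independent of each other. TTCNNNGAA, of the STAT site, occurred in 0 of the 7 promoters, against 8.30%. Both strands were searched for each. These matches describe the letters in these windows only.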

How the data were processed

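Libraries from primary hepatocytes of PBS- and rIL-33-treated mice, 1 per condition, were made with a droplet 3′ kit after loading 14000 to 16000 cells. Per the study's methods and the submitters' processing notes, reads were aligned to mm10 and counted with Cell Ranger. The authors kept cells with 200 to 3000 genes and at most 50% mitochondrial RNA, the upper gene limit being the removal of potential doublets named for these unsorted cells, pooled both libraries, clustered them in Seurat (3.1.2 and 4.0.4) and listed cluster markers with FindAllMarkers. Each gene's share of cells with a value above 0 is deposited by the authors as a fraction from 0 to 1, rounded to 0.1 percentage points, for a cluster and for its reference cells. Every listed gene has a share of at least 25% on one side. The tables also hold the authors' fold changes and p-values for these comparisons, which were not used. Because no value per library exists, no test was run. Rounding is the only error stated, and the counting error from the number of cells was not computed.

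Shares were turned into percent and read with Python 3.11.15, NumPy 2.4.6 and pandas 2.3.3. Cluster sizes came from least squares over 486 genes listed for at least 2 hepatocyte clusters (root mean square residual 0.0181 points) and were tested on simulated data. Shares over all hepatocytes, in clusters not listed, and ratios of implied transcripts, ln(1 − share) inside over ln(1 − share) outside, followed from them. Coding sequences (GENCODE M21, GRCm38) were aligned, and 89-base windows, the read length, were searched for exactly in all transcripts. Rows with a date in place of a gene name, 7 in the table of hepatocytes, were left out of gene matching. Named genes were all 10 members, the 2 genes most like each member listed for at least 2 hepatocyte clusters, up to 4 genes of each list by size of difference, and the cell markers. Stat3, Mcfd2, the list genes named as not listed and the serpins of other cells were added after their values were seen. A few results under these rules are not reported here. The members and lists were chosen with earlier results of these data known. Alternatives covered the size fit, the rounding, the row limits, the table, the likeness measure and the sequence windows.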

Additional observations from a re-analysis of the deposited data

How the results depend on the processing

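Of 105 values recomputed under the alternatives, 96 were labelled the same as the main value. All 64 alternatives for member shares stayed within the tolerance of 0.5 points, with a largest shift of 0.0747 points. Rounding limits move a share by far less than this tolerance. The 14 ratios of implied transcripts are another quantity than the differences in points and were labelled the same for being above 1. A higher share inside makes that certain. Counts of 0 members for Hepatocyte1 and Hepatocyte3 could not change under a stricter limit. The total of 96 therefore includes outcomes that were fixed in advance and does not measure how stable the results are. The count of members listed for Hepatocyte2 fell from 4 to 1 when a gene had to be at least 10 points higher inside, to 1 at 25 points, and to 1 in the table of all cells, and the count for Hepatocyte4 fell from 5 to 3 at 10 points and to 3 at 25 points. The limits removed members with shares above 90% on both sides, and for the other table the cause was not tested. Hepatocyte3 held 8.85% of hepatocytes instead of 10.1% when sizes came only from genes listed for at least 3 clusters, a fit with 6 genes that gave no size for Hepatocyte4 or Hepatocyte5. The median share of 3′ windows that the Serpina1 genes had in common with another gene was 8.01%, against 0 in the last 300 bases and 38.6% with 50-base windows, because the windows themselves differ. By the largest absolute difference Itih4 replaced Pigr as the second gene most like Serpina3n. The planned share of members in non-hepatocytes and its alternatives were not run, because the tables do not count the same values above 0. No paired analysis was possible because the tables pool both libraries and hold no value per sample, and leaving out a library was not possible either. The counting error of the shares, which depends on the number of cells, was not computed. It is largest for Hepatocyte5, the smallest hepatocyte cluster with 1.47% of hepatocytes. Error between mice cannot be given, and depth per cell is unknown.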

Other observations

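Some serpins outside the group described were listed for clusters of other cells in the table of all cells. Serpinh1, a collagen chaperone of the endoplasmic reticulum that inhibits no protease, had a value above 0 in 73.7% of cells of the stellate cell or fibroblast cluster against 0.1% of all other cells. Serpina3g, a neighbour of the Serpina3 genes on the map, was at 68.4% against 6.3% in that cluster and at 33.8% against 6.0% in the T cell cluster. Serpinb6a, an intracellular serpin, was at 62.3% against 18.2% in the Kupffer cell cluster. The stellate cell or fibroblast cluster held 0.171% of all cells, so its shares rest on few cells.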
